A study of Mus musculus with 8 samples.

Results

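The Notch pathway genes described here are 10 genes chosen by name: the ligand genes Jag1 and Dll1, the receptor genes Notch1, Notch2 and Notch3, the DNA-binding factor gene Rbpj and the target genes Hes1, Hey1, Hey2 and Heyl. Each is listed once in the deposited tables, so they are 10 of 23699 listed genes. They were measured by RNA sequencing of total RNA from 3T3-L1, a cultured line of mouse fibroblasts with the ability to become fat cells. The cells were preadipocytes collected 2 days after reaching confluence, before any induction of differentiation. In 4 libraries the cells had received a pool of 3 Stealth siRNAs against Fto, and in 4 libraries a pool of 3 non-targeting control siRNAs. Every culture was transfected before confluence for 24 hours at 40 nM with Lipofectamine 2000, so the transfection itself is common to both groups. The labels do not say whether replicates came from separate cultures, and each p-value therefore speaks of the spread among these 8 libraries, which may be technical.

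Notch signalling passes between touching cells. A ligand of the Jagged or Delta family on the first cell binds a Notch receptor on its neighbour, an ADAM protease and then gamma-secretase cut the receptor, and the freed intracellular part enters the nucleus. There it joins RBPJ and Mastermind proteins on DNA and turns on genes such as those of the HES and HEY repressors. In cells of the fibroblast and fat lineage the pathway is known as a regulator of whether progenitors differentiate. Fto encodes an enzyme that removes methyl groups from nucleic acids.

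Of the 10 genes, 7 reached a mean of 1 FPKM (fragments per kilobase of transcript, scaled to the mapped total of the library) over the 8 libraries and were tested. With Fto siRNA, Hes1 fell by 24.1% and Jag1 fell by 12.3% of the control mean, and 5 genes did not pass the test. These 2 calls among 7 tested genes stand beside 12.3% of all 11398 tested genes called lower, 6.97% called higher and 19.3% called in either direction. The Fto siRNA and control libraries did not overlap for the same 2 genes, both lower, and for 0 genes higher, where 15.1% of all tested genes lay lower and 9.08% higher without overlap. Limma called 0 of the 7 higher, with 1 (Hey1) higher at an unadjusted p under 0.05. The median log2 fold change of the 7 genes was -0.06, against -0.02 over all tested genes. A call means a limma adjusted p under 0.05 for Fto siRNA over control siRNA on log2(FPKM + 0.5), adjusted by Benjamini-Hochberg over all tested genes, and that scale understates the change of low genes.

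The libraries held 11351 to 11397 genes at 1 FPKM or more. Fto itself averaged 12.1 ± 1.29 FPKM in Fto siRNA libraries and 55.3 ± 0.647 FPKM in control siRNA libraries (SD, n = 4 each). Its log2 fold change was -2.15 (limma adjusted p = 7.3e-08). Preadipocyte and fibroblast markers were present, 9 of 10 at 1 FPKM or more, with a summed level of 5735 to 6749 FPKM with Fto siRNA and 5254 to 5742 FPKM in controls. Most of that sum is the collagen genes Col1a1 and Col3a1, both with a higher mean with Fto siRNA, and the members did not all go its way. Ly6a averaged 227 FPKM with Fto siRNA and 147 FPKM in controls, while Pdgfrb averaged 62.9 FPKM with Fto siRNA and 69.3 FPKM in controls and Pdgfra also had the lower mean with Fto siRNA. Endothelial cells, in which Notch ligands and Hey genes are prominent, left little trace: 0 of 6 endothelial markers reached 1 FPKM, and their sum was 0.379 to 0.571 FPKM with Fto siRNA and 0.354 to 0.614 FPKM in controls. Of 6 mature adipocyte markers 3 reached 1 FPKM, with sums of 53.4 to 65.7 FPKM with Fto siRNA and 51.0 to 81.7 FPKM in controls, most of it Fabp4. Adipoq, the adipocyte hormone gene, held 2.85, 1.22, 3.54 and 1.67 FPKM with Fto siRNA and 2.77, 3.20, 3.19 and 9.19 FPKM in controls, and Cidec, a lipid droplet gene, 0.838, 0.833, 0.821 and 0.527 FPKM with Fto siRNA and 0.354, 1.03, 1.19 and 3.26 FPKM in controls. Control library 4 was the highest for both and the groups overlapped. Without control replicate 4, Hes1 and Jag1 were called (limma adjusted p = 0.00914 for Hes1 and 0.0171 for Jag1). Leaving out 1 library does not separate adipocyte transcripts from the other differences, and their part in the Hes1 and Jag1 results was not tested. Of 5 haematopoietic markers 1 reached 1 FPKM, with sums of 1.82 to 2.50 FPKM with Fto siRNA and 1.43 to 1.89 FPKM in controls, and Emr1 and Cd3e were at 0. Of 6 mural and smooth muscle markers 2 reached 1 FPKM, the actin gene Acta2 and Des. Their list summed to 377 to 455 FPKM with Fto siRNA and 400 to 466 FPKM in controls, carried by Acta2. The highest of the remaining markers of that list was Myh11, with a mean of 0.151 FPKM over the 8 libraries. Epithelial and skeletal muscle markers stayed under 0.1 FPKM in sum.

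Across the 8 libraries the levels of the 8 most abundant of the 10 genes formed a fixed order. Jag1 was highest at 35.8 to 45.0 FPKM, with a median of 40.4 FPKM. Rbpj followed at 19.8 to 22.2 FPKM, then Notch2 at 15.1 to 17.7 FPKM and Hes1 at 8.95 to 14.3 FPKM. Notch1 lay at 5.95 to 7.08 FPKM, Notch3 at 2.05 to 2.55 FPKM and Hey1 at 1.11 to 1.74 FPKM. None of these ranges overlapped that of the next gene in the order, in either group. Dll1 stayed at 0.0297 to 0.138 FPKM, Hey2 was listed at 0 in 7 libraries and Heyl was listed at 0 in all 8. These confluent preadipocytes thus held transcripts of a Jagged ligand, 3 receptors, the nuclear factor and Hes1, with Dll1, Hey2 and Heyl near or at 0. FPKM are scaled by transcript length, so the levels of different genes can be set side by side.

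**Figure D1:**
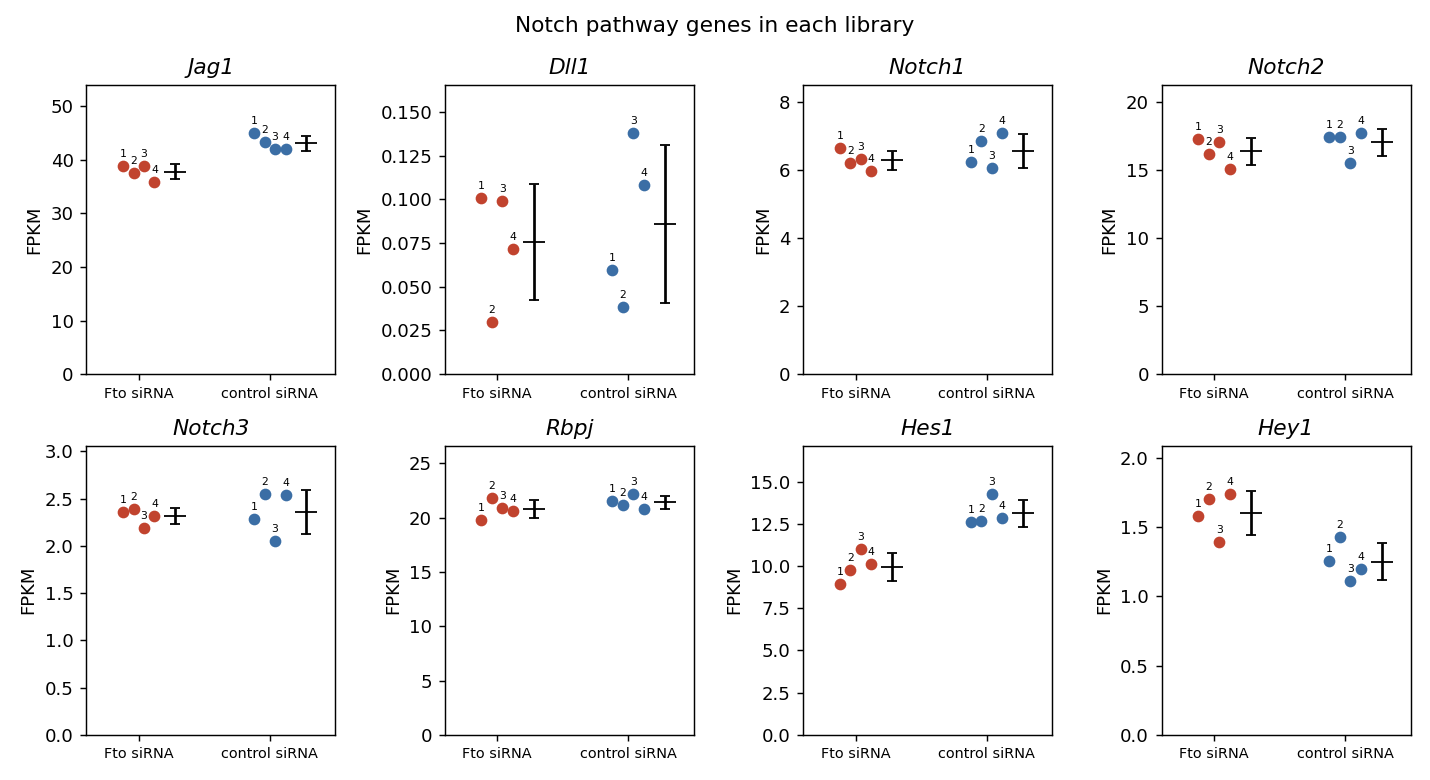
FPKM of 8 Notch pathway genes in each library, with Fto siRNA libraries in red on the left and control siRNA libraries in blue on the right of each panel; digits give the replicate, and the bar beside each group its mean and SD (n = 4). Jag1 and Hes1 lie lower in every Fto siRNA library than in every control, the other genes overlap between groups, and Hey2 and Heyl, at or near 0, are not drawn.

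Jag1, which encodes the ligand Jagged1, was nearly the whole of the canonical ligand pool and fell with Fto siRNA. The deposited tables place it at mm9 chr2:136907187-136942256. Jag1 stood at 38.7, 37.6, 38.8 and 35.8 FPKM in Fto siRNA libraries 1 to 4, against 45.0, 43.3, 42.0 and 41.9 FPKM in control libraries 1 to 4. The highest Fto siRNA library lay below the lowest control, so the groups did not overlap. The means were 37.7 ± 1.42 FPKM with Fto siRNA and 43.0 ± 1.43 FPKM in controls (SD, n = 4 each). The log2 fold change was -0.19 with SE 0.0387 and a 95% interval of -0.27 to -0.10 (limma adjusted p = 0.00836). In these bulk samples a smaller share of cells with a transcript and less transcript per cell cannot be told apart.

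The other canonical ligand genes were low. Dll1, which encodes the ligand Delta-like 1 (mm9 chr17:15504318-15512787), held 0.101, 0.0297, 0.0993 and 0.0718 FPKM with Fto siRNA and 0.0597, 0.0385, 0.138 and 0.108 FPKM in controls. The deposited intervals correspond to 2 to 9 fragments per library, the groups overlapped throughout, and p was 0.686 by exact two-sided permutation of its FPKM. A difference in Dll1 was not detectable at this depth. Jag2, which encodes the other Jagged ligand, averaged 0.343 ± 0.0466 FPKM with Fto siRNA and 0.3004 ± 0.0804 FPKM in controls, and Dll3 and Dll4 averaged under 0.05 FPKM in both groups. Jag1 made up 98.5 to 98.8% of the summed FPKM of the 5 canonical ligand genes with Fto siRNA and 98.7 to 99.2% in controls, so the sum followed Jag1, at 36.2 to 39.3 FPKM with Fto siRNA and 42.2 to 45.4 FPKM in controls.

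The receptor genes did not pass the test. Notch2 (mm9 chr3:97817461-97954290) held 17.3, 16.2, 17.1 and 15.1 FPKM with Fto siRNA and 17.5, 17.4, 15.6 and 17.7 FPKM in controls. Library 4 of the Fto siRNA group and library 3 of the controls were the low ones, and the groups overlapped. Notch2 thus had a log2 fold change of -0.06 with a 95% interval of -0.18 to 0.07 (limma adjusted p = 0.532). Notch1 (mm9 chr2:26313422-26359342) held 6.65, 6.21, 6.30 and 5.95 FPKM with Fto siRNA and 6.24, 6.85, 6.05 and 7.08 FPKM in controls. Its log2 fold change was -0.06 with a 95% interval of -0.19 to 0.08 (limma adjusted p = 0.563).

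Notch3 (mm9 chr17:32257838-32303797), a receptor gene best known from mural cells, held 2.35, 2.39, 2.19 and 2.32 FPKM with Fto siRNA and 2.29, 2.55, 2.05 and 2.54 FPKM in controls. The Fto siRNA libraries lay inside the range of the controls. Its log2 fold change was -0.02 with a 95% interval of -0.19 to 0.16 (limma adjusted p = 0.894), and its sign turned under quantile normalization and without Fto siRNA replicate 3 or control replicate 2 or 4. Notch4, the remaining receptor gene, averaged 0.108 ± 0.0437 FPKM with Fto siRNA and 0.116 ± 0.0445 FPKM in controls and was not tested. Limma thus called 0 of 3 tested receptor genes, with 0 at an unadjusted p under 0.05. Over all tested genes 19.3% were called in either direction. The 95% intervals of the log2 fold changes of these 3 receptor genes all lay between -0.19 and 0.16. Notch2 made up 64.1 to 66.5% of the summed receptor FPKM with Fto siRNA and 64.5 to 67.1% in controls, and Notch1 made up 24.6 to 25.3% with Fto siRNA and 24.0 to 25.7% in controls.

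Rbpj, which encodes the DNA-binding partner of the cut receptor (mm9 chr5:53947018-54048684), did not pass the test. It held 19.8, 21.8, 20.9 and 20.6 FPKM with Fto siRNA and 21.5, 21.2, 22.2 and 20.8 FPKM in controls. Fto siRNA libraries 1 and 4 lay below every control, and libraries 2 and 3 lay inside the control range. The log2 fold change was -0.04 with a 95% interval of -0.13 to 0.05 (limma adjusted p = 0.505).

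Hes1, a basic helix-loop-helix repressor and the best known target of the RBPJ complex, had the largest called change of the 10 genes. The deposited tables place it at mm9 chr16:30065443-30067882. Hes1 stood at 8.95, 9.75, 10.98 and 10.1 FPKM in Fto siRNA libraries 1 to 4, against 12.6, 12.7, 14.3 and 12.9 FPKM in control libraries 1 to 4. The groups did not overlap. Library 3 was the highest in each group, and control library 3 stood above the other controls. The means were 9.95 ± 0.841 FPKM with Fto siRNA and 13.1 ± 0.779 FPKM in controls (SD, n = 4 each). The log2 fold change was -0.38 with SE 0.0634 and a 95% interval of -0.52 to -0.24 (limma adjusted p = 0.0028), and without control replicate 3 it was -0.34 (limma adjusted p = 0.00478).

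Hey1 encodes another repressor of the same class that Notch can induce, and its values pointed the other way without passing the test. Hey1 (mm9 chr3:8663359-8667038) held 1.58, 1.70, 1.39 and 1.74 FPKM with Fto siRNA and 1.25, 1.43, 1.11 and 1.199 FPKM in controls. Fto siRNA libraries 1, 2 and 4 lay above every control, and library 3 lay below control library 2. The means were 1.60 ± 0.158 FPKM with Fto siRNA and 1.25 ± 0.134 FPKM in controls (SD, n = 4 each). The log2 fold change was 0.27 with a 95% interval of 0.05 to 0.48, at an unadjusted p of 0.02 and an adjusted p of 0.0811 in limma. Hey1 passed under quantile normalization (log2 fold change 0.31, limma adjusted p = 0.0493). The ratio of Hes1 to Hey1 FPKM was 5.67, 5.73, 7.92 and 5.81 in Fto siRNA libraries 1 to 4 and 10.1, 8.88, 12.8 and 10.7 in control libraries 1 to 4. It was lower in every Fto siRNA library than in every control, which is a description of the values above and was not tested.

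Hey2 and Heyl, the remaining HEY genes, gave no measurable level. Hey2 (mm9 chr10:30552165-30562589) was listed at 0 in 4 of 4 Fto siRNA libraries and 3 of 4 controls, and at 0.0187 FPKM in control library 4, where the deposited interval corresponds to 1 fragment. Heyl (mm9 chr4:122910799-122927113) was listed at 0 in every library. Among the other HES genes Hes6, which encodes a relative that counteracts HES1, averaged 18.1 ± 1.23 FPKM with Fto siRNA and 20.5 ± 2.29 FPKM in controls (log2 fold change -0.17, limma adjusted p = 0.142). Hes7 averaged under 0.5 FPKM in both groups, Hes3 and Hes5 under 0.05 FPKM, and Hes2 and Helt were listed at 0. The summed FPKM of the HES and HEY family was 29.0 to 32.3 with Fto siRNA and 33.2 to 39.5 in controls, made up mainly of Hes6 and Hes1.

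Depth differed widely among the 7 tested genes. The deposited intervals correspond to 3854 to 5529 fragments per library for Jag1, 3250 to 4345 for Notch2, 2044 to 2666 for Rbpj and 1098 to 1537 for Notch1. They correspond to 318 to 477 fragments for Notch3, 240 to 381 for Hes1 and 45 to 75 for Hey1. Counting error alone is then at most 1.61% of the level for Jag1, 6.45% for Hes1 and 14.9% for Hey1. The replicate spread of Jag1, 3.77% with Fto siRNA and 3.33% in controls, exceeded its counting error, as did both spreads of Notch2, Notch1 and Rbpj. That of Hey1, 9.88% with Fto siRNA and 10.7% in controls, lay within it. Hes1 had a spread of 8.45% with Fto siRNA and 5.94% in controls, near its counting error. Notch3 was split, with a spread of 3.82% with Fto siRNA and 10.1% in controls. Its counting error was at most 5.61%.

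**Figure D2:**
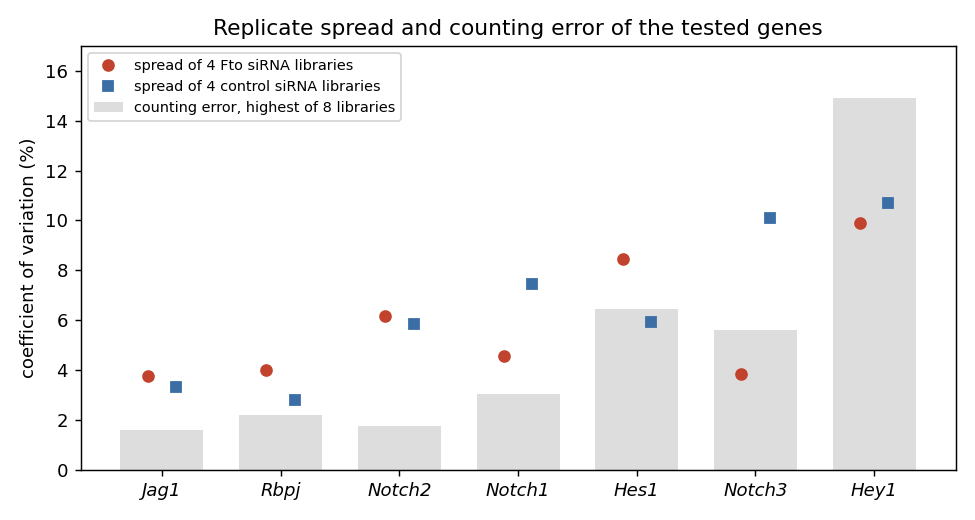
Coefficient of variation (SD over mean, in percent) of the 4 Fto siRNA libraries (red circles) and the 4 control siRNA libraries (blue squares) for the 7 tested Notch pathway genes, with grey bars from 0 for the largest counting error of the 8 libraries. Both spreads of Jag1, Rbpj, Notch2 and Notch1 stand above the bar, and both spreads of Hey1 stand inside it. For Notch3 the Fto siRNA spread stands inside the bar and the control spread above it, and for Hes1 the reverse.

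The genes whose profile over the 8 libraries lay closest to that of Hes1 were Ppp1r2, Imp3 and Hoxd8. Likeness was the root mean square difference of log2(FPKM + 0.5), each gene taken relative to its own control mean, over all tested genes with a single entry. The differences from Hes1 were 0.0508, 0.0514 and 0.0538. Ppp1r2, which encodes an inhibitor of a protein phosphatase, averaged 37.1 ± 1.85 FPKM with Fto siRNA and 48.5 ± 2.56 FPKM in controls (SD, n = 4 each), Imp3, a factor of ribosome assembly, 43.2 ± 2.10 FPKM with Fto siRNA and 55.5 ± 3.46 FPKM in controls, and the homeobox gene Hoxd8 31.9 ± 1.40 FPKM with Fto siRNA and 41.3 ± 2.00 FPKM in controls. Closest to Jag1 were Fbf1, Fbxo30 and Eif2ak4, at 0.0159, 0.0215 and 0.025. Fbf1, a gene of the cilium base, averaged 11.9 ± 0.294 FPKM with Fto siRNA and 13.7 ± 0.367 FPKM in controls, Fbxo30, an F-box gene, 9.57 ± 0.265 FPKM with Fto siRNA and 11.1 ± 0.379 FPKM in controls, and Eif2ak4, which encodes a kinase that senses amino acid shortage, 15.4 ± 0.231 FPKM with Fto siRNA and 17.5 ± 0.629 FPKM in controls. None of these 6 is a gene of the Notch lists.

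**Figure D3:**
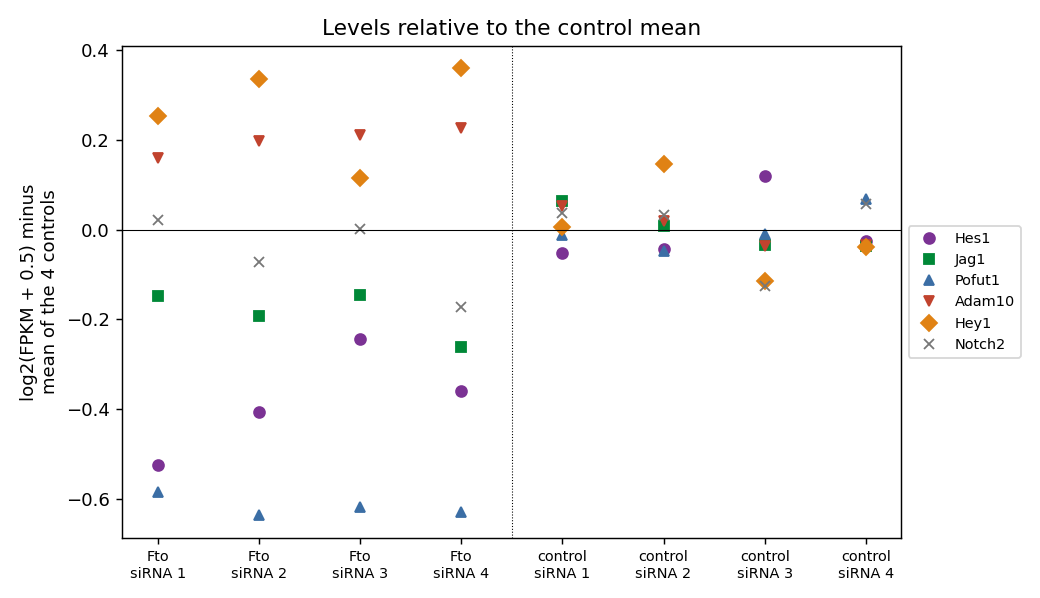
Level of 6 genes in each library as log2(FPKM + 0.5) minus the mean of the 4 controls, with Fto siRNA libraries left of the dotted line and control siRNA libraries right of it. Pofut1, Hes1 and Jag1 lie below 0 in all 4 Fto siRNA libraries, Adam10 and Hey1 above 0, and Notch2 lies on both sides of 0 in both groups.

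The wider pathway was read through 11 lists holding 92 genes, of which 83 are not among the 10 above. Of these 83, 66 were tested, 4 rose, 9 fell and 53 did not pass, which is 6.1% higher and 13.6% lower beside 6.97% and 12.3% of all tested genes. With the 6 tested genes that both sets share, 4 rose and 11 fell of 72, and with median-ratio scaling 6 rose and 8 fell and with quantile normalization 7 and 7. Over all tested genes 794 rose and 1401 fell, so 36.2% of calls were higher, against 47.1% with median-ratio scaling and 47.4% with quantile normalization.

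Of 5 tested genes that glycosylate and mature the receptor 1 fell, Pofut1, beside 12.3% of all tested genes called lower. With 5 genes this count is given as a description. Pofut1 had the largest log2 fold change of the tested pathway genes. Pofut1 encodes the enzyme that puts O-fucose on the receptor's EGF repeats, which receptors need to signal. It held 14.4, 13.9, 14.1 and 13.9 FPKM in Fto siRNA libraries 1 to 4, against 21.7, 21.1, 21.7 and 22.9 FPKM in control libraries 1 to 4. The groups lay far apart, with a mean of 14.1 ± 0.229 FPKM with Fto siRNA and 21.9 ± 0.766 FPKM in controls (SD, n = 4 each). The log2 fold change was -0.62 (limma adjusted p = 7.56e-06). The other 4 tested genes of this list did not pass: Lfng, whose product extends the O-fucose, averaged 1.87 ± 0.127 FPKM with Fto siRNA and 2.28 ± 0.265 FPKM in controls (log2 fold change -0.23, limma adjusted p = 0.101), and Furin, the protease that first cuts the receptor precursor, 24.2 ± 0.794 FPKM with Fto siRNA and 22.8 ± 1.07 FPKM in controls (0.09, adjusted p = 0.193).

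The proteases that cut the bound receptor changed in both directions, 2 higher and 2 lower of 9 tested, beside 6.97% higher and 12.3% lower over all tested genes. With 9 genes these counts are given as a description. Adam10, the protease that makes the ligand-dependent cut, rose, with 100.1, 103, 104 and 105 FPKM in Fto siRNA libraries 1 to 4 against 93.0, 90.8, 87.3 and 87.6 FPKM in control libraries 1 to 4. All Fto siRNA libraries exceeded all controls, and the log2 fold change was 0.20 (limma adjusted p = 0.00289). Psen2, which encodes a catalytic subunit of gamma-secretase, fell to 8.29 ± 0.318 FPKM with Fto siRNA, against 9.78 ± 0.530 FPKM in controls (SD, n = 4 each; log2 fold change -0.22, limma adjusted p = 0.0115). Aph1b, a scaffold subunit, fell to 4.80 ± 0.258 FPKM, against 5.71 ± 0.111 FPKM (-0.23, adjusted p = 0.0121), and its near-identical copy Aph1c can exchange reads with it. The 5 tested genes of this list that did not pass included Adam17, a related ADAM protease, at 22.4 ± 0.567 FPKM with Fto siRNA and 21.3 ± 0.761 FPKM in controls.

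Genes that tag ligands or receptors for turnover gave 2 calls, both lower, among 3 and 11 tested genes of the lists, a share near the 12.3% of all tested genes called lower. Limma called 0 of 3 tested ligand ubiquitin ligase genes, with 0 at an unadjusted p under 0.05; Mib1, the main ligase for the ligands in mammals, averaged 13.2 ± 0.937 FPKM with Fto siRNA and 13.1 ± 1.80 FPKM in controls. Of 11 tested genes of receptor turnover 2 fell. Dtx4, a Deltex gene, held 2.60, 1.79, 2.28 and 2.67 FPKM with Fto siRNA and 3.52, 3.06, 3.00 and 2.97 FPKM in controls (log2 fold change -0.37, limma adjusted p = 0.036). Itch, a ligase for the receptor, averaged 26.7 ± 0.325 FPKM with Fto siRNA and 28.9 ± 0.774 FPKM in controls (-0.11, adjusted p = 0.0358). Neither group pair overlapped, but Dtx4 was not called without Fto siRNA replicate 2 or 3 or control replicate 1, 2 or 4 (adjusted p 0.0592 to 0.092), nor Itch without any library but control replicate 3 (0.0604 to 0.1). Dtx4 was also not called with quantile normalization (0.0707) or with no filter (0.0828), nor Itch with median-ratio scaling (0.0878) or quantile normalization (0.0751). Numb, an inhibitor of the receptor, averaged 14.0 ± 0.948 FPKM with Fto siRNA and 14.7 ± 0.838 FPKM in controls and did not pass.

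Nuclear partners of RBPJ and of the HES proteins gave 1 gene higher and 4 lower among 8 and 17 tested genes of the lists, shares near the 6.97% and 12.3% of all tested genes. Of 8 tested coactivators Kat2b, an acetyltransferase, fell, with 17.5, 17.5, 18.5 and 19.1 FPKM with Fto siRNA and 20.7, 20.04, 19.5 and 19.7 FPKM in controls (log2 fold change -0.14, limma adjusted p = 0.0362). The Mastermind genes Maml1, Maml2 and Maml3 had log2 fold changes of 0.01, -0.09 and 0.00, with adjusted p of 0.893, 0.195 and 0.996. Of 17 tested corepressors and cofactors 3 fell and 1 rose. Hdac3, a histone deacetylase, fell to 44.9 ± 1.89 FPKM, against 55.1 ± 2.27 FPKM in controls (-0.29, adjusted p = 0.00123).

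The Groucho family genes, whose products HES1 recruits to repress its targets, did not move together. Tle2 held 38.6, 39.7, 41.5 and 38.1 FPKM with Fto siRNA and 44.6, 48.1, 52.7 and 48.1 FPKM in controls (log2 fold change -0.29, limma adjusted p = 0.00374). Tle1 held 3.58, 3.53, 3.57 and 3.59 FPKM with Fto siRNA and 2.94, 2.82, 3.06 and 2.92 FPKM in controls (0.24, adjusted p = 0.0122). Tle2 was thus lower and Tle1 higher in each Fto siRNA library than in each control. Tle3 fell to 12.1 ± 0.578 FPKM, against 13.5 ± 0.578 FPKM in controls (-0.16, adjusted p = 0.0407), and Tle4 did not pass (0.04, adjusted p = 0.573). Kat2b was not called without Fto siRNA replicate 1, 2 or 3 or control replicate 1, 2 or 4 (adjusted p 0.0591 to 0.0926), nor Tle3 without Fto siRNA replicate 2 or 4 or any single control (0.0529 to 0.104). With median-ratio scaling and quantile normalization neither was called (0.0634 and 0.0514 for Kat2b, 0.0626 and 0.0688 for Tle3), and Tle3 was not called with no filter (0.0645).

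Outside the core pathway, 5 tested non-canonical ligands and EGF-repeat relatives gave 0 calls in limma, with 1 higher (Mfap5) and 0 lower at an unadjusted p under 0.05. Of 7 tested E protein and Id genes 1 was called, higher. These counts stand beside 6.97% of all tested genes called higher and 12.3% called lower. With 5 and 7 genes they are given as a description. The gene that rose was Id1, which encodes an inhibitor that sequesters helix-loop-helix partners. It held 85.5, 104, 100 and 92.6 FPKM with Fto siRNA and 57.0, 75.9, 84.2 and 69.6 FPKM in controls (log2 fold change 0.42, limma adjusted p = 0.0194). The groups did not overlap, and library 1 was the lowest in each group. Id1 was not called without Fto siRNA replicate 2 or 3 or control replicate 4 (adjusted p 0.0505 to 0.0551), nor with no filter on low values (0.0627). With the replicate number as a block it was called (limma adjusted p = 0.00328).

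**Figure D4:**
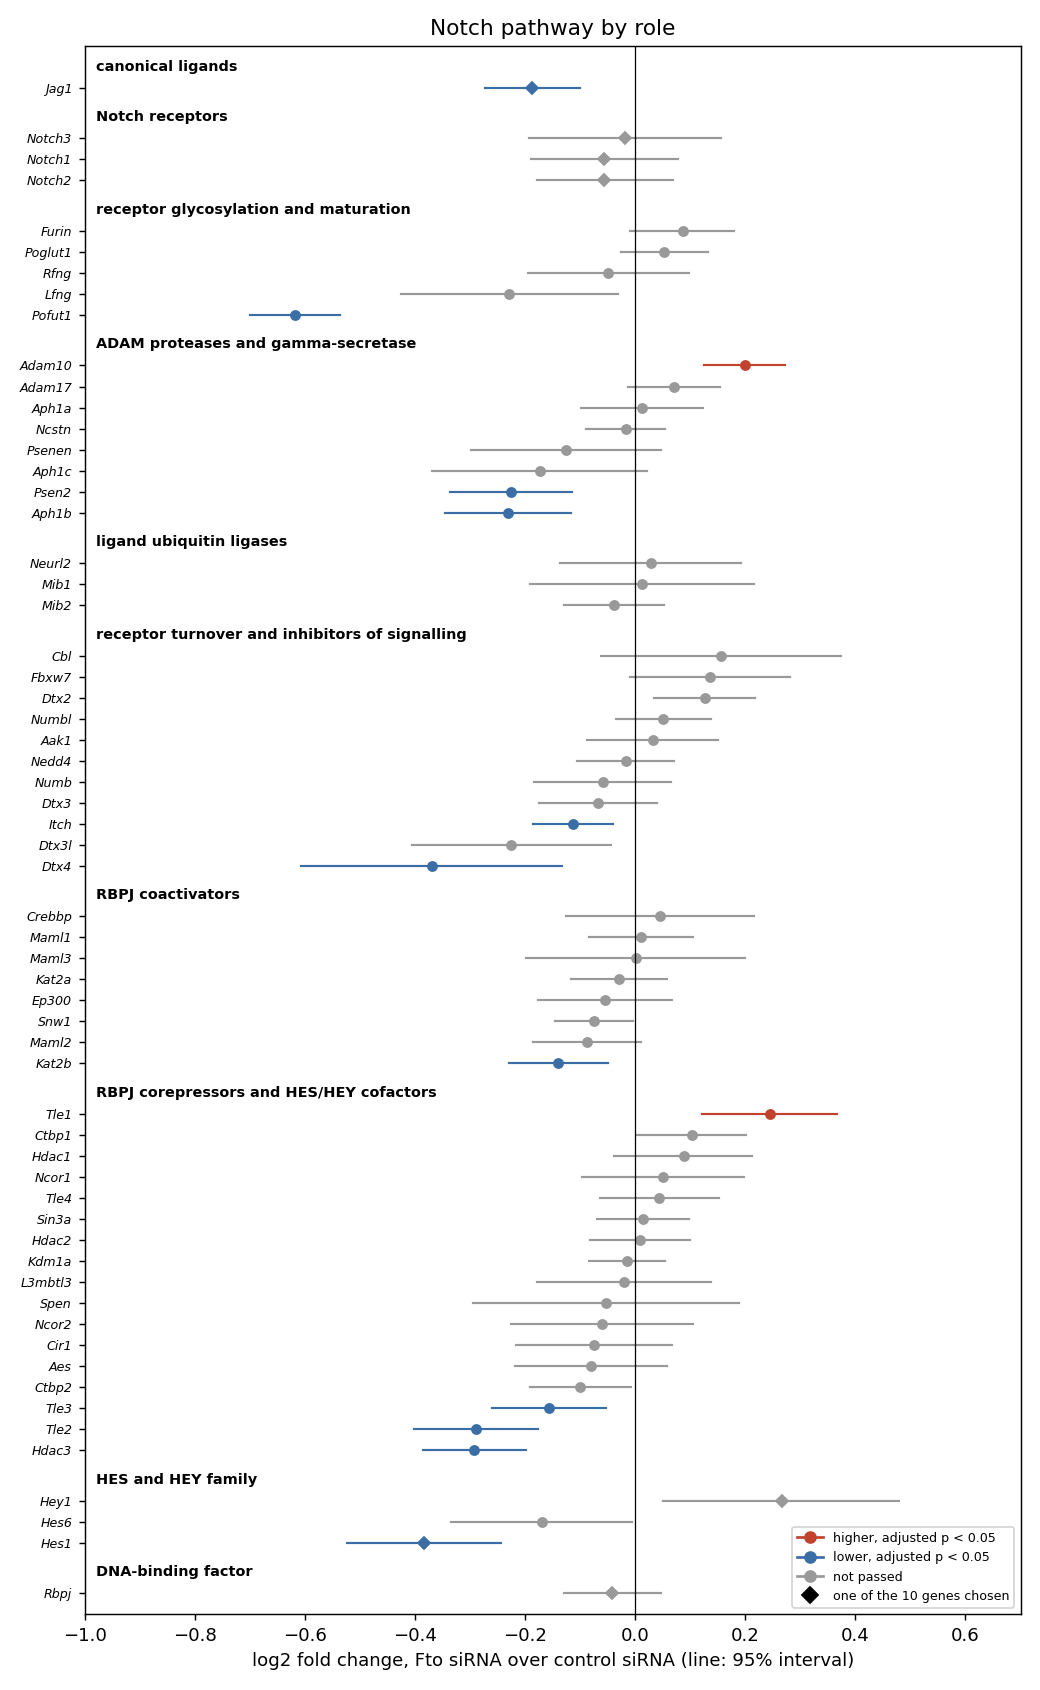
Log2 fold change of Fto siRNA over control siRNA with its 95% interval for tested genes of 9 lists and Rbpj, grouped by role, with 1 tested gene not drawn; red marks called higher, blue called lower, grey not passed, and diamonds the genes chosen by name. Hes1 and Jag1 lie left of 0 the 95% intervals of the 3 receptors and Rbpj hold 0, and Pofut1 lies furthest left at -0.62.

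A pair of overlapping 7-base words, GACCTTA and ACCTTAA, is more frequent in the 3′ UTRs of genes that fell in these libraries, and the words were picked in an earlier look at the same libraries. With GENCODE M21 3′ UTRs of GRCm38, 344 of 1236 fallen genes (27.8%) held either word, against 64 of 709 risen genes (9.03%) and 957 of 7888 genes that did not pass (12.1%). A gene counted when any of its searched 3′ UTRs held a word, and these shares are not adjusted for UTR length. The searched 3′ UTRs of Hes1 and Jag1, which fell, hold neither word. Of the 10 genes Notch2 holds it, and Notch2 did not pass. Of the 66 other tested pathway genes 14 hold a word, of which Pofut1, Hdac3, Aph1b, Itch and Kat2b fell, Tle1 rose and 8 did not pass; Dtx4, Psen2, Tle2 and Tle3 fell and hold none. The sites of Notch2, which did not pass, of Pofut1, Itch, Kat2b and Aph1b, which fell, and of Tle1, which rose, are shown so that the letters can be compared across genes with each outcome, and that of Hdac3 is not shown here. They are printed with the word in capitals and the mRNA strand 5′ to 3′, all in GRCm38. The Notch2 site lies at chr3:98148165-98148193 (+ strand), those of Pofut1 at chr2:153266457-153266485 and chr2:153268789-153268817 (+), that of Itch at chr2:155224467-155224492 (+), that of Kat2b at chr17:53672049-53672077 (+), that of Aph1b at chr9:66777860-66777888 (- strand) and that of Tle1 at chr4:72117444-72117472 (-).
Notch2: tctgaacctgcACCTTAAtttctctcccc
Pofut1, site 1: aagcctaaagtGACCTTAtaaatgaaatg
Pofut1, site 2: ccaggggagccACCTTAAatgcaaaatcc
Itch: ttgtttaGACCTTAAgccaccagagg
Kat2b: aaatgaaggccACCTTAAtggtctcgaca
Aph1b: ccaggaactaaACCTTAAttgatgaactt
Tle1: attttatgctcACCTTAAgctggtagcta

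The Itch site joins both words in 8 bases, Pofut1 holds each word at a separate place, and the other genes shown hold ACCTTAA alone. A match is a string of letters and not a shown binding site, and its part in the levels was not tested.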

How the data were processed

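Total RNA of 8 samples was sequenced. The submitters' processing notes name TopHat2 2.0.11, Cufflinks 2.2.1 and build mm9. The deposited values are FPKM with Cufflinks intervals, 1 table per library, per the file headers; FPKM hold no counts, and the authors' compiled tables were not used here. The sources used here do not say whether strand was used in counting. Fragments per gene were worked out from the deposited FPKM intervals (2 standard errors wide on each side) and cover counting error only.

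Genes with a mean of at least 1 FPKM were tested on log2(FPKM + 0.5) in limma 3.58.1 under R 4.3.3, letting the prior variance follow the mean level, two-sided and adjusted over 11398 genes at 0.05. Single low genes had an exact two-sided permutation test, whose smallest p with 70 arrangements is 0.0286. A simulation was also run, with SDs shuffled across genes, and its outcome is not reported here. Because of that shuffling it does not follow the link of variance to level in these libraries. The rate of false calls of the limma test in these libraries was not tested. Tables and plots used Python 3.11.15, scipy 1.17.1, pandas 2.3.3 and matplotlib 3.10.9. Deposited locus starts count from 0: end minus start equalled the RefSeq length for 8902 genes, against 549 for end minus start plus 1, so 1 was added to each start. Between replicates of a group the median gap was 0.898 to 1.52 standard errors, all 8 were kept, and control replicate 3 stood furthest from its group.

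The 10 genes and the lists were chosen with earlier results of these data known. Beside the 10 genes and Fto, the text names up to 4 called genes per list and the 3 genes most like each of the 2 lowest-p genes; others are named for context. Alternatives were other pseudocounts (0.1 and 1), filters (none and 5 FPKM), scalings, a replicate block and leaving out each library. RefSeq promoter and protein sequences were not used here. A result for 1 gene of the wider lists is not reported here.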

Additional observations from a re-analysis of the deposited data

Results flagged for a closer look

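Among 17 sets of 4 values with any spread, 3 held a library whose gap to its nearest neighbour took more of the range than the 95% critical value of Dixon's test allows, which chance exceeds in about 1 of 20 sets. Control replicate 3 was the low one for Notch2, at 15.56 FPKM, and the high one for Hes1, at 14.27 FPKM. Fto siRNA replicate 3 was also the highest of its group for Hes1, at 10.98 FPKM. Without control replicate 3 the log2 fold change was -0.10 for Notch2 (limma adjusted p = 0.195) and -0.34 for Hes1 (limma adjusted p = 0.00478). That control library also held the lowest control values of Notch1, Notch3 and Hey1 and the highest of Rbpj, values that did not pass the test for a gap. Hey2 was listed at 0.01873 FPKM in control replicate 4 and at 0 elsewhere. With a single value above 0 the gap is the whole range, so this flag was fixed in advance and the chance rate does not apply.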

How the results depend on the processing

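Hes1 and Jag1 were called lower in all 15 alternatives run, with log2 fold changes of -0.43 to -0.34 (limma adjusted p 0.00221 to 0.0116) and -0.20 to -0.16 (adjusted p 0.00774 to 0.0275). The count of called genes among the 10 was 2 in every alternative except quantile normalization, where Hey1 made it 3, and leaving out a library gave 2 to 2. Over all wider lists the count was 15, and leaving out a library gave 10 to 17; over all tested genes it was 2195, and 1543 to 2373. Notch3 was not called and had a log2 fold change of 0.038 with quantile normalization, 0.003 without Fto siRNA replicate 3, 0.014 without control replicate 2 and 0.012 without control replicate 4, within -0.072 to 0.014 over all single libraries left out; the cause was not tested. Of 13 other called pathway genes 8 kept their call in every alternative that tested them, while Dtx4, Id1, Itch, Kat2b and Tle3 lost it in 4 to 10, by leaving out a library, another scaling or no filter, and Itch and Kat2b also with the replicate block (limma adjusted p 0.0921 and 0.0861). With the replicate number as a block, 2 of the 10 genes, 16 genes of the wider lists and 1761 of all genes were called. Over all tested genes no pairing by number was seen. Same-numbered libraries correlated at -0.191 to 0.0736 in their deviations, and 0 of 8 libraries correlated best with its own number. Single genes can differ, as Hes1 and Id1 were each lowest in library 1 of both groups. Whether same-numbered libraries shared a culture or day cannot be told from these correlations. Depth limits Dll1, Hey2, Heyl and, with 45 to 75 fragments, Hey1.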
